A study of Rattus norvegicus with 30 samples.

Results

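The comparison described here set the brains of 7 valproate-exposed GAERS pups against those of 7 valproate-exposed NEC pups, 14 of the 30 rat pups sequenced. Members were taken by label, without use of any measured value. GAERS, the Genetic Absence Epilepsy Rats from Strasbourg, are an inbred rat strain bred for spontaneous absence seizures. NEC, the Non-Epileptic Controls, are the inbred strain kept alongside them without seizures. All 14 pups carried the label for exposure to valproate (VPA), and the remaining 16 pups (8 GAERS control and 8 NEC control) carried the label for no exposure. The labels give brain as the tissue and give no region, age, sex, litter, dose or time of exposure, so pups may share a dam and p-values measure the spread between these samples only. The comparison asks how the epileptic and the seizure-free strain differ once both have been exposed.

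Absence seizures are brief lapses of awareness that arise from synchronous firing between the cortex and the thalamus, seen as spike-and-wave discharges on the electroencephalogram. Several ion channels take part, among them T-type calcium channels, HCN channels and GABA receptors. Valproate is an antiseizure drug used against absence seizures that also inhibits histone deacetylases, enzymes that remove acetyl groups from histones, and exposure in the womb is a known risk for brain development. An inbred strain is fixed for its own alleles at almost every locus, so a comparison of 2 such strains carries every fixed allele difference between them, whether linked to seizures or not.

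Genes in the deposited table carry rat Ensembl identifiers only. No file used here pairs identifiers with symbols, so what each gene does cannot be given, and only 4 genes are named by identifier. The other genes are described by rank, level, size and direction, and the labelled tissue could not be checked against marker genes. Sequences cannot be shown for the same reason.

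Total counts ran from 26963266 to 37862679 in exposed NEC pups and from 29799925 to 35793062 in exposed GAERS pups, and the groups overlapped (exact two-sided permutation test, p = 0.547). The table lists 32586 genes. Tests were possible for 15415, while 7545 had some counts but too few, and 9626 were at 0 in all 14 libraries. Between 99.94% and 99.96% of the counts of a library fell in tested genes. In 2 libraries the median correlation of log2 expression with the rest of the group was low: 0.985 for NEC VPA 7, with the others of its group at 0.990 to 0.993, and 0.984 for GAERS VPA 4, with the others at 0.989 to 0.991.

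Strain was the main axis of variation among exposed pups. The first principal component of log2 CPM (CPM, a count divided by the scaled size of its library and set to a common total) held 34.3% of the variance. Its scores ran from -47.8 to -0.743 in NEC and from -5.18 to 30.1 in GAERS, a difference between means of 35.8 (two-sided exact permutation p = 0.00117, or 0.00466 adjusted over 4 tests of library measures). The 2 groups overlapped only through GAERS VPA 4, at -5.18, which lay below NEC VPA 6 at -0.743. The lowest score belonged to NEC VPA 7. The second component, with 14.8% of the variance, differed by 15.4 between the means (exact permutation p = 0.0472, adjusted p = 0.0629) and did not pass after adjustment.

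**Figure D1:**
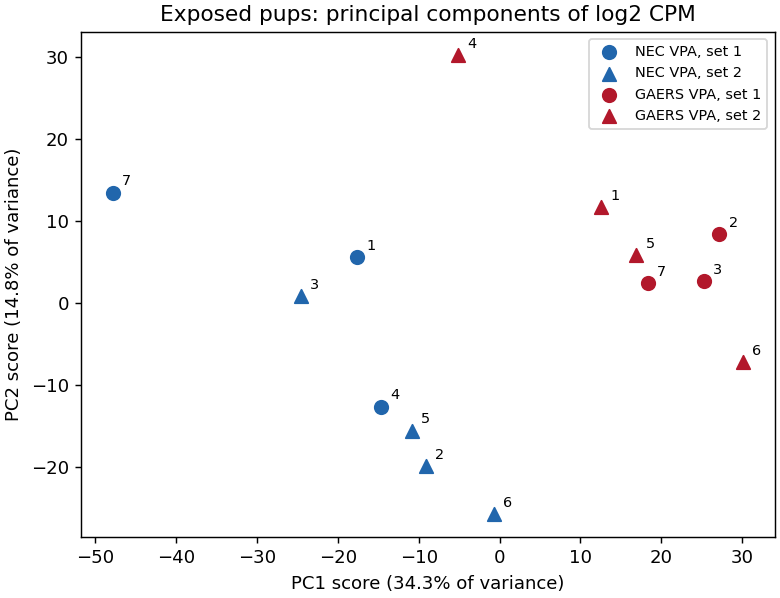
Scores of the 14 exposed pups on the first (x axis) and second (y axis) principal components of log2 CPM, in score units. Each point is 1 pup with its replicate number; colors give strain, and circles and triangles the 2 sets of pups set apart by 8 dividing genes. NEC pups lie at -47.8 to -0.743 on the first component and GAERS pups at -5.18 to 30.1.

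Of the 15415 genes tested, 1762 (11.4%) differed between exposed GAERS and exposed NEC brains in the quasi-likelihood test of edgeR at a Benjamini-Hochberg adjusted p under 0.05, here termed called. GAERS was higher for 945 genes (6.13% of those tested) and lower for 817 (5.3%). Most differences were small, with a median size among called genes of 0.34 on the log2 scale, or 1.26-fold. Genes higher in GAERS had a median size of 0.40 (1.32-fold) and genes lower in GAERS 0.27 (1.21-fold). In bulk tissue, fewer cells of a type and less RNA per cell cannot be told apart.

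A minority of genes differed strongly. Differences above 0.5 on the log2 scale were found in 538 called genes, of which 356 were higher and 182 lower in GAERS. Differences above 1, or 2-fold, were found in 178 genes (102 higher, 76 lower), and differences above 2 in 43 genes (20 higher, 23 lower). The surplus of higher genes was thus found among those of medium size and was not present above 2. The small surplus of higher genes among all calls did not hold under every analysis: 48.7% of calls were higher in a fit of all 30 libraries and 58.5% with upper-quartile scaling, against 53.6% here.

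For 577 genes (3.74% of those tested) the 7 GAERS pups and the 7 NEC pups did not overlap at all in CPM, and 570 of these were also called. They made up 28.1% of the genes called higher in GAERS and 37.2% of those called lower. The other called genes differed in mean with overlap between single pups.

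The number of calls depended on single pups. It was 1133 without GAERS VPA 2, 1230 without NEC VPA 7 and 2334 without GAERS VPA 4, the pup that lay closest to NEC on the first component. Without NEC VPA 7 and GAERS VPA 4 together it was 1668, of which 1394 were among the 1762. Of the 1133 genes called without GAERS VPA 2, 1112 were among the 1762.

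The gene with the largest fold difference in favor of GAERS, among called genes with at least 4 CPM in the higher strain, was ENSRNOG00000008548. Exposed GAERS pups 1 to 7 were at 9.91, 9.69, 10.1, 10.6, 9.998, 9.71 and 10.6 CPM. Exposed NEC pups 1 to 7 were at 0.105, 0.240, 0.0908, 0.101, 0.149, 0.187 and 0.228 CPM. Every GAERS pup had nearly the same CPM for the gene and every NEC pup was near 0. The means were 10.1 ± 0.384 and 0.157 ± 0.0619 CPM (SD, n = 7 each), which put GAERS above NEC by 5.98 ± 0.15 on the log2 scale (SE, adjusted p = 3.39e-14 by edgeR). Each SE of a log2 difference in this report is its size divided by the square root of the edgeR F statistic. Such an SE can fall below counting error for genes near 0 counts in 1 strain.

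ENSRNOG00000017412 showed the same kind of separation at a lower level. Exposed GAERS pups were at 4.75, 4.50, 4.43, 4.92, 5.10, 4.37 and 4.85 CPM. Exposed NEC pups were at 0.183, 0.160, 0, 0.203, 0.149, 0.343 and 0.114 CPM, with no count in NEC VPA 3. The means of 4.70 ± 0.277 and 0.165 ± 0.103 CPM (SD, n = 7 each) differed by 4.80 ± 0.25 on the log2 scale (SE, adjusted p = 1.02e-09 by edgeR).

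In the other direction ENSRNOG00000032708 had the largest fold difference. Exposed NEC pups were at 55.1, 60.7, 56.2, 58.3, 58.9, 63.1 and 60.4 CPM. Exposed GAERS pups were at 0.0339, 0.607, 0.166, 0.314, 0.132, 0.314 and 0.1004 CPM. The gene was thus well counted in every NEC pup and close to absent from the counts of every GAERS pup, of which GAERS VPA 2 was the highest. The means of 59.0 ± 2.75 and 0.238 ± 0.194 CPM (SD, n = 7 each) differed by -7.88 ± 0.20 on the log2 scale (SE, adjusted p = 9.87e-14 by edgeR).

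ENSRNOG00000059957 followed in that direction. Exposed NEC pups were at 4.40, 4.71, 4.84, 5.10, 4.09, 4.55 and 5.13 CPM, and exposed GAERS pups at 0.204, 0.386, 0.304, 0.251, 0.0987, 0.283 and 0.1004 CPM. The strains did not overlap, and the log2 fold change was -4.28 ± 0.19 (SE, adjusted p = 1.24e-10 by edgeR). Left without any one pup, the log2 fold changes of these 4 genes stayed within 5.88 to 6.13, 4.58 to 5.07, -8.33 to -7.70 and -4.45 to -4.16 respectively.

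**Figure D2:**
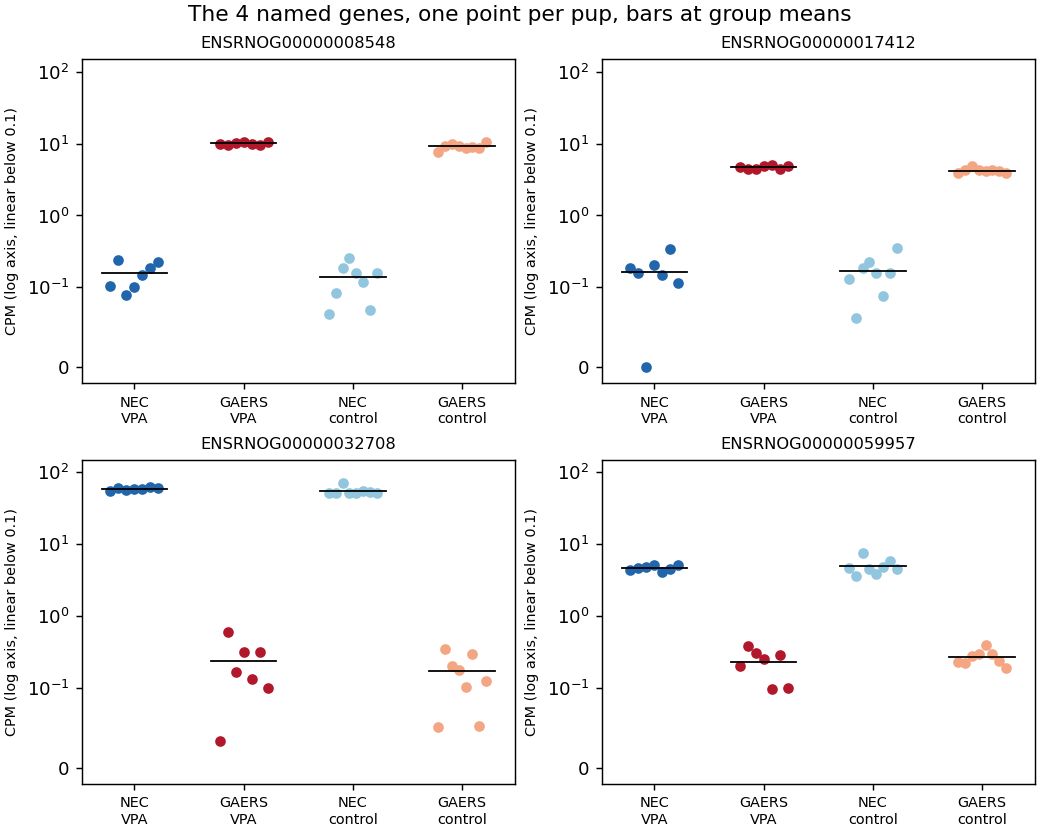
CPM (y axis, logarithmic and linear below 0.1) of the 4 named genes in each pup of the 4 groups, with bars at group means. In the exposed pups ENSRNOG00000008548 sits at 9.69 to 10.6 CPM in GAERS and at most 0.240 in NEC, and ENSRNOG00000032708 at 55.1 to 63.1 CPM in NEC and at most 0.607 in GAERS.

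In the plot of the named genes, unexposed pups lay near the exposed pups of their strain, and no unexposed GAERS pup overlapped an unexposed NEC pup. The strain difference in unexposed pups, from a fit of all 30 libraries, was 6.04 for ENSRNOG00000008548, 4.61 for ENSRNOG00000017412, -8.31 for ENSRNOG00000032708 and -4.18 for ENSRNOG00000059957 on the log2 scale. The test of the difference between exposed and unexposed pups gave unadjusted edgeR p-values of 0.798, 0.612, 0.301 and 0.753. The difference and its SE were -0.07 ± 0.25 for ENSRNOG00000008548, 0.18 ± 0.36 for ENSRNOG00000017412, 0.42 ± 0.40 for ENSRNOG00000032708 and -0.11 ± 0.28 for ENSRNOG00000059957. A p that misses the threshold does not show that the strain difference was equal in both.

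The 12 highest and 12 lowest genes by the same ranking were mostly of low abundance. In 8 of the 12 highest and 7 of the 12 lowest the stronger strain averaged under 10 CPM. The share under 10 CPM among all called genes was not counted. A ranking by fold change favors low levels. The median size of called genes was 0.41 at a mean log2 CPM of 2 to 4 and 0.20 at 8 and above. Among the 12 highest, log2 fold changes ran from 1.26 to 5.98, and the strains did not overlap in 11. Among the 12 lowest they ran from -1.62 to -7.88, and the strains did not overlap in 11. Over all tested genes 3.74% did not overlap, and these 24 were ranked on the same exposed values. All 24 were also called in unexposed pups in the same direction, where 8.66% of all genes were called. Those calls came from the fit of all 30 libraries, whose variance also drew on the exposed pups.

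Near absence in 1 strain was seen in both directions equally often. With a mean under 0.5 CPM in one strain and at least 1 CPM in the other, 13 called genes were near absent in exposed NEC and 13 in exposed GAERS. The genes near absent in NEC averaged 1.02 to 10.1 CPM in GAERS (median 1.80), and those near absent in GAERS averaged 1.03 to 59.0 CPM in NEC (median 1.66). Not all were close to 0: means in the low strain reached 0.498 CPM in NEC and 0.478 in GAERS. The smallest differences were 1.14 and 1.36 in size on the log2 scale. The strains did not overlap in 9 of the former and 12 of the latter, against 3.74% of all tested genes. Both sets were chosen on these same exposed values, which favors such separation. In unexposed pups 7 of the former and 11 of the latter met the same limits. There 11 and 13 were called, against 8.66% of all genes.

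A single tested gene in each direction had no count at all in 1 strain. Each could pass the filter for testing only through the other strain, so its p-value is no separate support. The gene absent from exposed NEC had 0 counts in all 7 libraries against 153 counts in GAERS, or 0.677 ± 0.133 CPM (SD, n = 7), with 16 to 28 counts in each pup. Taking 3 counts over the group as the limit that 0 allows, it was at least 52.0-fold higher in GAERS (edgeR adjusted p = 1.68e-06). The gene absent from exposed GAERS had 225 counts in NEC, 22 to 46 in each pup, or 0.971 ± 0.238 CPM (SD, n = 7), and was at least 73.6-fold lower in GAERS (edgeR adjusted p = 1.46e-06). In unexposed pups these genes had 1 count each in the strain without them, against 162 and 370 counts in the other strain. These limits cover counting error only.

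Genes expressed in both strains differed by degree. Of the called genes, 1342 had at least 4 CPM in both strains, 665 higher and 677 lower in GAERS. The examples given here were taken by smallest p, which favors genes with little spread between pups. The gene higher in GAERS with the smallest p was at 15.01 to 18.4 CPM in NEC and 64.1 to 75.0 CPM in GAERS. Its means of 17.0 ± 1.34 and 70.5 ± 3.95 CPM (SD, n = 7 each) differed by 2.05 ± 0.06 on the log2 scale (SE, edgeR adjusted p = 9.87e-14). The next was at 13.9 ± 1.09 in NEC and 34.3 ± 3.15 CPM in GAERS (SD, n = 7 each), higher in GAERS by 1.30 ± 0.07 on the log2 scale (SE, adjusted p = 9.87e-10 by edgeR).

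Lower in GAERS with the smallest p was a gene at 26.4 to 36.3 CPM in NEC and 9.07 to 11.01 CPM in GAERS. The means were 31.5 ± 3.25 and 10.2 ± 0.594 CPM (SD, n = 7 each), which differed by -1.62 ± 0.07 on the log2 scale (SE, adjusted p = 6.80e-11 by edgeR). An abundant gene followed, with NEC pups 1 to 7 at 399, 432, 435, 431, 430, 423 and 421 CPM and GAERS pups at 262 to 289 CPM. Its difference was modest, -0.62 ± 0.03 on the log2 scale (SE, edgeR adjusted p = 1.19e-09), and larger than the spread in either strain.

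The share of calls higher in GAERS differed between levels of expression. Below a mean log2 CPM of 0 it was 62.9% of 143 called genes. Of the 231 genes called at a mean log2 CPM of 0 to 2, 69.3% were higher in GAERS. The share was 64.1% of 398 between 2 and 4, 49.3% of 574 between 4 and 6, and 40.2% of 343 between 6 and 8. At 8 and above, 73 genes were called, 19 higher and 54 lower in GAERS, a share higher of 26.0%. The share of genes called varied little with level, from 10.1% to 13.1%. The median size of called genes fell from 1.08 below a log2 CPM of 0 to 0.20 at 8 and above, and the median standard error of all tested genes from 0.24 to 0.05.

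The tilt held in direction with upper-quartile scaling, in the fit of all 30 libraries and without single pups. With upper-quartile scaling the share higher in GAERS was 70.5% at 0 to 2 and 32.4% at 8 and above, and in the fit of all 30 libraries 66.3% and 16.4%. Without any one pup it ran from 64.4% to 72.9% at 0 to 2 and from 18.4% to 32.5% at 8 and above. Counts were also less concentrated in GAERS: the top 100 genes of a library took 14.7% ± 0.298 of its counts, against 15.2% ± 0.475 in NEC (SD, n = 7 each, exact two-sided permutation p = 0.0204, adjusted p = 0.0408 over 4 tests), with overlap between pups. The part of this measure in the tilt was not tested.

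**Figure D3:**
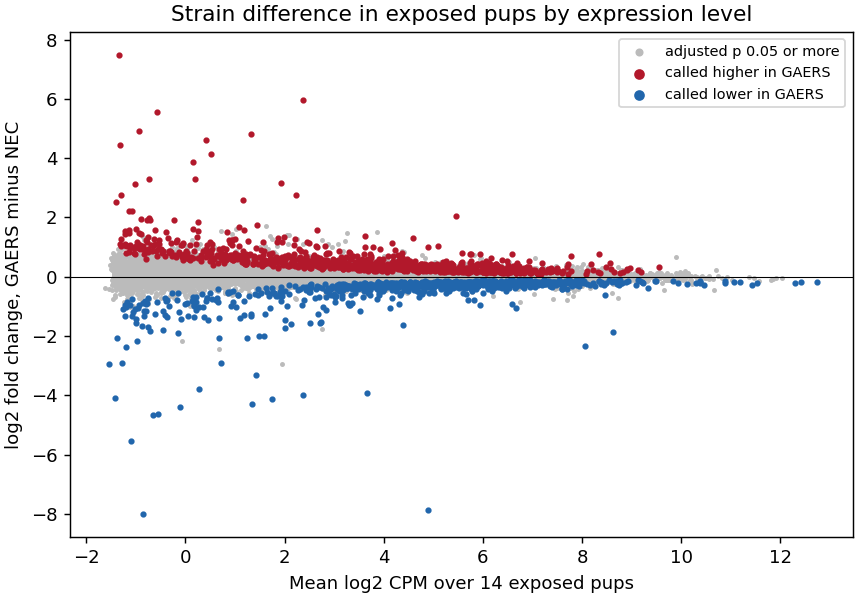
Log2 fold change, GAERS minus NEC, in exposed pups (y axis) against mean log2 CPM over the 14 exposed pups (x axis), 1 point per tested gene. Called genes are red where higher in GAERS and blue where lower; red points make up 69.3% of calls at 0 to 2 and 26.0% at 8 and above.

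A pair of abundant genes was lower in GAERS by a large factor and also varied widely between pups. In the first, NEC pups 1 to 7 were at 214, 685, 243, 830, 256, 491 and 404 CPM, and GAERS pups 1 to 7 at 84.6, 138, 94.0, 40.3, 70.9, 54.3 and 133 CPM. The strains did not overlap, though within each strain the highest pup stood several-fold above the lowest. The means of 446 ± 238 and 87.9 ± 37.2 CPM (SD, n = 7 each) differed by -2.34 ± 0.38 on the log2 scale (SE, adjusted p = 0.00168 by edgeR).

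In the second of the pair, NEC pups were at 272, 991, 328, 1088, 358, 634 and 655 CPM and GAERS pups at 161, 280, 173, 65.0, 124, 109 and 281 CPM. The lowest NEC pup lay below the 2 highest GAERS pups. GAERS differed from NEC by -1.86 ± 0.40 on the log2 scale (SE, adjusted p = 0.011 by edgeR). NEC VPA 2 and NEC VPA 4 were highest in both genes, and GAERS VPA 4 was lowest in both. The only other called gene with at least 100 CPM in the higher strain and a size over 1 averaged 137 ± 18.6 CPM in NEC against 66.8 ± 12.97 in GAERS (SD, n = 7 each). Its residual correlation with the first of the pair was -0.45.

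These genes belonged to a larger group that rose and fell together between pups. After each strain's mean was removed, 17 genes followed the first of the pair over the 14 pups with a Pearson correlation above 0.9 (median 0.94). This is a description, since all values of a pup come from 1 library. The first gene was picked because it was called and lower in GAERS. Of the other 17, 4 were called for strain, all lower in GAERS, where 11.4% of all tested genes were called. In log2 fold change 16 of the 17 were lower in GAERS. Directions differed in unexposed pups, where 12 of the 17 were higher in GAERS by log2 fold change, 2 were called higher and 1 was called lower. Single genes ranged from 1.56-fold to 20.6-fold between the lowest and the highest of the 14 pups.

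The 3 most abundant of the group averaged over 500 CPM in both strains and were not called for strain. Their summed level was 4343 ± 2287 CPM in exposed NEC, from 2022 to 7789, and 3856 ± 1912 CPM in exposed GAERS, from 1634 to 6512 (SD, n = 7 each). The strains overlapped almost fully in this sum.

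Set against that sum, the pair separated the strains with little spread. The first of the pair stood at 10.6%, 9.83%, 10.6%, 10.7%, 9.85%, 11.2% and 9.33% of the sum in NEC pups 1 to 7. In GAERS pups 1 to 7 it stood at 2.48%, 2.15%, 2.46%, 2.47%, 2.51%, 2.28% and 2.05%. The means were 10.3% ± 0.635 and 2.34% ± 0.183 (SD, n = 7 each). The second of the pair stood at 14.2% ± 0.535 in NEC, from 13.4% to 15.1%, and at 4.41% ± 0.234 in GAERS, from 3.98% to 4.71% (SD, n = 7 each). Within a strain each of the pair lay in a narrow range of the sum, while its level in CPM varied several-fold. The genes were kept for covarying with the first of the pair over these same pups, which favors a narrow range here.

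The genes of this ratio were picked on the exposed pups, so it was tested in the unexposed pups alone. There the first of the pair stood at 9.86% ± 0.735 in NEC and 1.98% ± 0.121 in GAERS (SD, n = 8 each, exact two-sided permutation p = 0.000155, adjusted p = 0.000311 over the pair). The second stood at 14.1% ± 0.722 and 4.34% ± 0.294 (SD, n = 8 each), with the same exact permutation p, the smallest that 8 against 8 pups can give. The sum itself was not level between the strains there: unexposed NEC pups had 2815 ± 893 CPM, unexposed GAERS pups 4484 ± 1317 (SD, n = 8 each). One of its 3 genes was called higher in unexposed GAERS, by 1.07 on the log2 scale (edgeR adjusted p = 0.0194), which also moves the ratio. In CPM the first of the pair averaged 276 ± 88.0 in unexposed NEC and 89.7 ± 30.6 in unexposed GAERS (SD, n = 8 each), a log2 difference of -1.62 (edgeR adjusted p = 0.000277). The second averaged 397 ± 123 and 196 ± 59.5 CPM (SD, n = 8 each), a log2 difference of -1.02 (edgeR adjusted p = 0.0283).

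**Figure D4:**
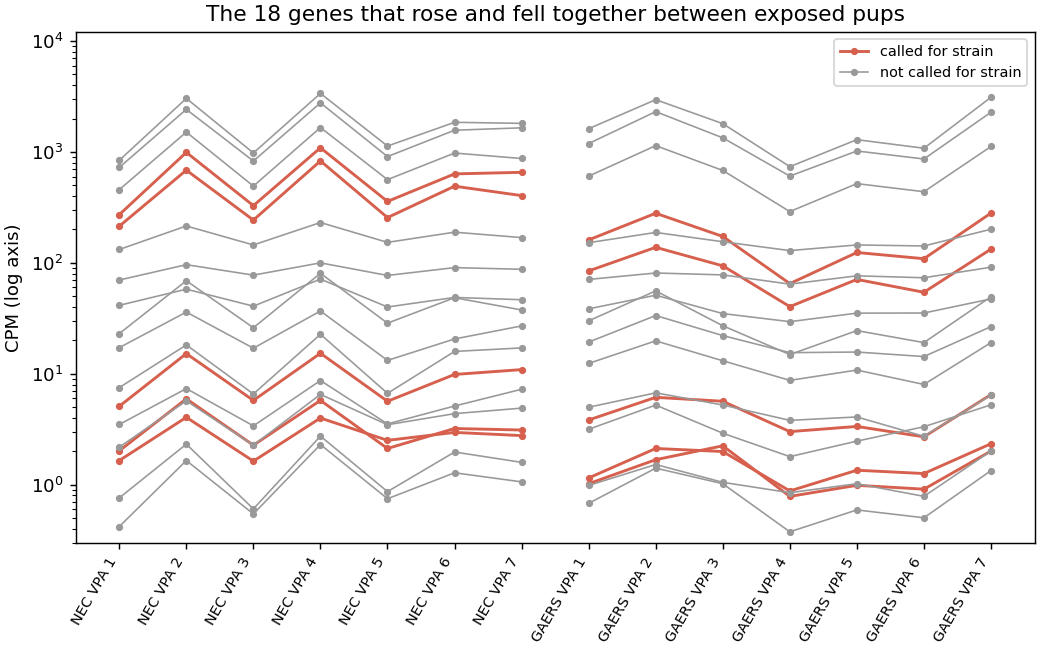
CPM (logarithmic y axis) of the 18 covarying genes in each exposed pup (x axis), 1 line per gene, broken between the strains. The 5 genes called for strain are red; the upper 2 red lines, the abundant pair, run at 214 to 1088 CPM in NEC and 40.3 to 281 in GAERS, while the 3 highest gray lines overlap between strains.

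Gene by gene, the spread between pups was mostly larger within GAERS than within NEC. Over the 12014 tested genes whose mean log2 CPM was 2 or more, the median SD of log2 CPM was 0.13 in exposed GAERS and 0.11 in exposed NEC. The SD was larger in GAERS for 65.2% of these genes, and for 63.9% without NEC VPA 7 and GAERS VPA 4. Scores on the first principal component spread the other way, with an SD of 15.1 in NEC and 11.9 in GAERS. So did those on the second, at 14.5 and 11.6. No test was made of these differences, and all genes of a pup come from 1 library.

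A few genes divided the pups within each strain. In all 4 groups, 8 genes had a gap of more than 3 log2 units between neighboring pups, and they divided the pups the same way, with 2 genes high in one set and 6 in the other. Exposed NEC had 3 pups in the first set and 4 in the second, and so did exposed GAERS, so the sets were balanced between the strains. Of the 8 genes 6 were tested for strain; edgeR called 0, and 0 had an unadjusted p under 0.05. With the sets as a covariate the strain comparison called 1559 genes, 1543 of them among the 1762.

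The strain difference of exposed pups was set beside that of unexposed pups, which share no library with them. The unexposed calls, however, came from the fit of all 30 libraries, whose filter, scaling and variance also drew on the exposed pups. The exposed and unexposed calls were therefore not independent. In the fit of all 30 libraries, 1951 of 15885 genes (12.3%) were called in exposed pups and 1375 (8.66%) in unexposed pups. In the same 30 libraries DESeq2 called 2294 in exposed and 1593 in unexposed pups, and limma-voom with quality weights 2757 and 3022. By edgeR the unexposed pups gave 1806 calls without GAERS control 1. Of the 1762 genes called here in exposed pups, 765 were also called in unexposed pups, all in the same direction. That was 43.4% of the exposed calls and, of the 1320 unexposed calls that were tested in both fits, 58.0%.

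Large differences were called again more often than small ones. Of the 178 genes called in exposed pups with a size over 1 on the log2 scale, 153 (86.0%) were called in unexposed pups. Of the 1224 with a size of at most 0.5, 426 (34.8%) were. The direction was the same in unexposed pups for 97.8% of the 178 and 88.7% of the 1224. Over all genes tested in both fits it was the same for 65.7%. Of the 42 genes called in unexposed pups with a size over 2, 41 were called in exposed pups. Of the 570 called genes with no overlap between strains in exposed pups, 260 (45.6%) also had none among the 8 GAERS and 8 NEC controls, where 2.68% of all genes had none. None of the 570 was separated in the opposite direction in controls.

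Median sizes were compared in the pups that chose the genes and in the others. The 1762 genes called in exposed pups had a median size of 0.34 there and of 0.20 in the same direction in unexposed pups. The 1320 genes called in unexposed pups had a median size of 0.35 there and of 0.28 in the same direction in exposed pups. For both of these full sets the pups that chose the genes gave the larger value. For the 176 unexposed calls over 1 the medians were 1.44 in unexposed and 1.30 in exposed pups. Other sets of large differences did not show this. The 178 exposed calls over 1 had a median of 1.35 in exposed and 1.35 in unexposed pups, and the 42 unexposed calls over 2 had 3.44 in unexposed and 3.55 in exposed pups.

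**Figure D5:**
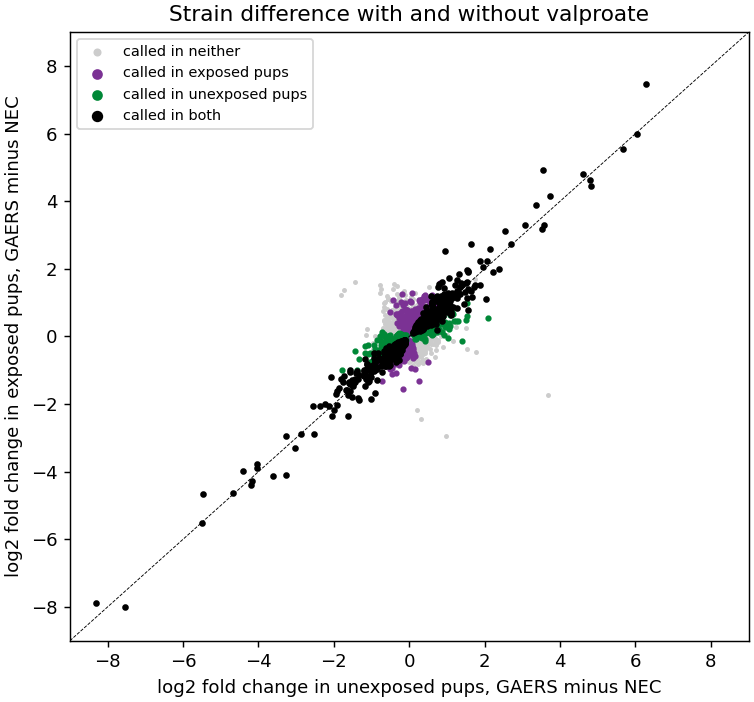
Log2 fold change, GAERS minus NEC, in exposed pups (y axis, fit of 14 libraries) against unexposed pups (x axis, fit of 30 libraries), 1 point per gene, with a dashed line of equality. The 765 genes called in both are black and lie in the 2 quadrants of equal sign.

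The difference between these 2 strain differences was tested directly as an interaction, and no gene passed. By edgeR 0 of 15885 genes (0%) had an adjusted p under 0.05, the smallest adjusted p was 0.303, and 1278 genes had an unadjusted p under 0.05. Of the 15415 genes tested in both fits, 1250 (8.11%) had such an unadjusted p, where a share of 0.05 would come by chance. DESeq2 called 2 genes and limma-voom with quality weights 140. A gene absent from the calls is not shown to be equal in exposed and unexposed pups.

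The gene with the smallest interaction p was higher in exposed GAERS, at 7.53 ± 1.95 CPM against 4.76 ± 0.813 in exposed NEC (SD, n = 7 each). In unexposed pups it was at 4.12 ± 0.611 and 5.29 ± 1.10 CPM (SD, n = 8 each), with GAERS the lower mean. The exposed strain difference exceeded the unexposed one by 1.02 ± 0.21 on the log2 scale (SE, edgeR adjusted p = 0.303). Exposed GAERS pups ran from 4.92 to 10.6 CPM and overlapped exposed NEC pups, at 3.65 to 5.99.

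In the other direction, the gene with the smallest interaction p was lower in exposed GAERS, at 39.1 ± 4.44 CPM against 56.9 ± 3.68 in exposed NEC (SD, n = 7 each), without overlap. In unexposed pups it was at 43.1 ± 4.05 and 46.2 ± 3.81 CPM (SD, n = 8 each), with overlap. The exposed difference was larger by -0.44 ± 0.09 on the log2 scale (SE, edgeR adjusted p = 0.303). The gene next in that direction was lower in GAERS in both, by -0.54 ± 0.05 in exposed and -0.26 ± 0.04 in unexposed pups (SE), with an edgeR adjusted p of 0.332 for the difference. None of these differences passed the adjustment for all genes.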

How the data were processed

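Per the labels, the TruSeq Stranded Total RNA Gold kit was used on RNA from brain. The deposited values are raw counts per Ensembl gene, without normalization. Per the submitters' processing notes, reads were handled with FastQC and STAR 2.5 on build Rnor_6.0. How genes were counted, from which annotation and with which strand setting is not given in the sources used here. Thus overlapping, antisense and near-identical genes may share reads. Reads of both strains were handled on the same build, and the part of strain sequence in near-absent counts was not tested. None of the identifiers matched the RefSeq table of GRCr8 (47357 rows), so 31 gene lists and a covariate for sex were not run. Members and lists were chosen with earlier results of these data known.

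The 14 exposed libraries were fitted in R 4.3.3 with edgeR 4.0.16: filterByExpr (minimum count 10, total 15), TMM scaling, robust quasi-likelihood test, 2 group means, Benjamini-Hochberg over 15415 genes. Controls were kept out; a 4-group fit of all 30 libraries gave the unexposed difference and the interaction, and CPM of controls come from its scaling. Log2 CPM used a prior count of 2. The rule for named genes took the 2 highest and 2 lowest log2 fold changes among called genes with at least 4 CPM in the higher strain. Genes given by rank, the covarying group, the ratio, the dividing genes and the division by level were chosen after the data were examined. Alternatives used limma 3.58.1, DESeq2 1.42.0 and sva 3.50.0. Replicate numbers follow deposit order and pair nothing. Replicates differed by more than counting noise (lowest chi-square per degree of freedom 5.15). The fits were tested on simulated data. The strain comparison recovered 50% of genes changed 1.25-fold and 90% of those changed 2-fold. For the interaction these were 22% and 82%. In the simulated data 50 genes were changed at each fold. That gave 166 calls for strain and 130 for the interaction, where the real data gave 1762 and 0. The adjusted threshold depends on the number of changed genes, so these shares need not hold for the real data. Small differences between exposed and unexposed pups could have been missed.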

Additional observations from a re-analysis of the deposited data

Results flagged for a closer look

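A pup far from the other 6 of its exposed group was looked for in 26 sets of values. It was found in 3, where chance would give about 1.3. GAERS VPA 7 had 15.3% of its counts in its top 100 genes, while the other exposed GAERS pups had 14.4% to 14.7%. NEC VPA 7 had a median correlation with its group of 0.985, against 0.990 to 0.993 in the others. GAERS VPA 4 had a median correlation of 0.984, against 0.989 to 0.991 in the others.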

How the results depend on the processing

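The number of genes called between exposed strains was 1762. It ran from 1133 to 2334 when each of the 14 libraries was left out, and only the 1133, without GAERS VPA 2, was more than 1.5 times away. It was 1559 to 2503 under 12 other analyses, the highest by DESeq2, and 538 with a size above 0.5 on the log2 scale required. With 4 surrogate variables it was 1828, of which 1143 were among the 1762. The 4 named genes kept their direction and passed in each alternative. For the interaction, 0 genes were called by edgeR; leaving out each of 30 libraries gave 0 to 2 (2 without GAERS control 1, 1 without NEC control 2), DESeq2 gave 2 and limma-voom with quality weights 140. For strain in unexposed pups 1375 genes were called, 1115 to 1806 without single libraries and 3022 with limma-voom with quality weights. The cause of these changes was not tested. The covariate for dividing genes, the fit without NEC VPA 7 and GAERS VPA 4, the alternatives for unexposed pups, and the other tools for exposed pups in the fit of 30 libraries were chosen after the data were examined. No paired analysis was possible because no label links a GAERS pup to an NEC pup. The covariate for sex was not run. Depth limits genes near 0 counts, and 7 pups a strain limit small differences.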
